A study of Mus musculus with 2 samples.

Results

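The miR-181 family comprises the mature arms of miR-181a, miR-181b, miR-181c and miR-181d, and its members were taken by name, as every listed arm or copy in the deposited tables. The 10 members were 4 arms from the 5′ side of their hairpins (5p) and 6 from the 3′ side (3p), out of 1358 miRNAs measured in all. The series sequenced small RNA from the retina of wild-type mice of the outbred CD-1 strain at postnatal day 0. Its single group consisted of 2 libraries, replicate 1 with 8337902 counts and replicate 2 with 8118208 counts. The labels do not say whether different animals went into each library, and their spread may therefore be technical. By its title the series belongs to a study of how amacrine cells, which are retinal inhibitory interneurons, are formed under miR-216b and Foxn3. With 1 group there was no condition to compare, and the comparisons below are between members, between arms and between the libraries.

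A miRNA is cut from a hairpin precursor, and the arm that is loaded into an Argonaute protein pairs with target mRNAs mainly through its seed, bases 2 to 8 from the 5′ end. Members of a family that share a seed can therefore share targets. miR-181 miRNAs are known from vertebrate retina and brain and from developing lymphocytes, where miR-181a tunes T-cell receptor signalling. In medaka fish, miR-181a and miR-181b were found to act on growth factor signalling during axon growth of amacrine and retinal ganglion cells.

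The mature sequences of all 10 members were present in RefSeq (GRCm38.p6). They are shown 5′ to 3′ because the seed, in capitals, sets which members can share targets:
miR-181a-5p: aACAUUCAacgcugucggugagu
miR-181b-5p: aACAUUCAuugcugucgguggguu
miR-181d-5p: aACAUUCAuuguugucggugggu
miR-181c-5p: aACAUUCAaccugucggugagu
miR-181a-1-3p: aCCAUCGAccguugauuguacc
miR-181c-3p: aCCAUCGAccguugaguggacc
miR-181a-2-3p: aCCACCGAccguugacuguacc
miR-181b-1-3p: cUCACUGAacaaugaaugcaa
miR-181b-2-3p: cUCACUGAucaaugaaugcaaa
miR-181d-3p: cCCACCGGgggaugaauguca
The 4 5p arms share the seed ACAUUCA, whereas the 6 3p arms carry 4 different seeds. Beyond the seed, miR-181b-5p differs from miR-181a-5p by the substitutions A9U, C10U and A21G, and miR-181d-5p differs from miR-181b-5p by C12U (positions from 1 at the 5′ end, the first-named base belonging to the miRNA compared against). miR-181c-5p shares its first 10 and its last 12 bases with miR-181a-5p and is 1 base shorter. miR-181c-3p differs from miR-181a-1-3p by U16G and U19G, miR-181a-2-3p differs from it by U5C and U16C, and miR-181b-2-3p differs from miR-181b-1-3p by A9U. No other miRNA in the tables had any of these 5 seeds, either in its annotated sequence or in its most frequent read.

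The members come from 6 hairpins in 3 pairs. Mir181a-1 (chr1:137966455-137966541) and Mir181b-1 (chr1:137966639-137966718) lie 97 bases apart on the plus strand. Both are in an intron of the long noncoding gene Gm4258, and an exon of the lincRNA A430106G13Rik on the same strand holds all of Mir181b-1 and the last 11 bases of Mir181a-1 (GENCODE M21, GRCm38). Mir181a-2 (chr2:38852735-38852810) and Mir181b-2 (chr2:38853830-38853918) lie 1019 bases apart on the plus strand. No annotated transcript other than their own overlaps them on that strand, and both are opposite an intron of the nuclear receptor gene Nr6a1. Mir181c (chr8:84178873-84178961) and Mir181d (chr8:84178716-84178787) lie 85 bases apart on the minus strand in an intron of a noncoding transcript of Nanos3. miR-181a-5p and miR-181b-5p each have the same mature sequence in 2 hairpins, so their counts cannot be assigned to either copy, and the 3p arms are the part of the data that tells the copies apart. The hairpins of the pair of miR-181a copies are shown with both arms in capitals:
Mir181a-1: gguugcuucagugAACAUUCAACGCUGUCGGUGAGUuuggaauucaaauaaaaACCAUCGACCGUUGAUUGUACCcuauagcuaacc
Mir181a-2: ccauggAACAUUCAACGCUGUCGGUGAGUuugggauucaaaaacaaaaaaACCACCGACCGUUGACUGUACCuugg

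Each of the 10 members had reads in each library, as did 924 of all 1358 miRNAs. The family as a whole held 3.51% of the counts in replicate 1 and 3.07% in replicate 2. The 5p arms made up 96.9% of the family's counts in replicate 1 (exact 95% interval 96.87 to 96.99%) and 96.3% in replicate 2 (96.19 to 96.34%). Levels are given as CPM, the count scaled to a common library size by the total of the count table. They spanned more than 4 orders of magnitude within the family, and the median member, at 167 CPM, was above the median of all 1358 miRNAs, at 0.73 CPM. A mean of at least 100 CPM was reached by 5 of the 10 members, against 13.3% of all miRNAs. In a bulk library a low level from few cells and a low level in every cell cannot be told apart.

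miR-181a-5p was the highest member, at 19315 CPM in replicate 1 and 16106 CPM in replicate 2, and ranked 10 of 1358. miR-181b-5p followed at 9801 and 8816 CPM (rank 16), and miR-181d-5p at 4796 and 4561 CPM (rank 26). The libraries did not overlap across these 3 members, with miR-181a-5p 1.90-fold above miR-181b-5p and that 1.99-fold above miR-181d-5p. The log2 ratio of miR-181a-5p over miR-181b-5p was 0.98 in replicate 1 and 0.87 in replicate 2 (mean 0.92 ± 0.077, SD, n = 2). That of miR-181b-5p over miR-181d-5p was 1.03 and 0.95 (0.99 ± 0.057). miR-181c-5p stood far below, at 101 and 72.2 CPM (rank 186), although it shares the seed and most bases with miR-181a-5p. miR-181a-5p exceeded it by a log2 ratio of 7.69 ± 0.15, a 207-fold difference. miR-181d-5p, whose hairpin lies next to that of miR-181c, exceeded it 54.8-fold (log2 ratio 5.57 in replicate 1 and 5.98 in replicate 2). A ratio between different miRNAs holds the yield of adapter ligation for each sequence as well as the amount of RNA. Within the 5p counts, miR-181a-5p took 56.8% in replicate 1 and 54.5% in replicate 2, miR-181b-5p 28.8% and 29.8%, miR-181d-5p 14.1% and 15.4%, and miR-181c-5p 0.296% and 0.244%.

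The 3p arms ran from 840 CPM down to the limit of detection. miR-181a-1-3p reached 784 CPM in replicate 1 and 840 CPM in replicate 2 (rank 81), and miR-181c-3p reached 242 and 253 CPM (rank 130). These are the pair with the shared seed CCAUCGA, and they held 95.3% of the 3p counts in each library. miR-181b-1-3p was at 27.8 and 32.9 CPM, miR-181b-2-3p at 19.5 and 17.2 CPM and miR-181d-3p at 3.36 and 3.08 CPM. miR-181a-2-3p was lowest, with 1 count in replicate 1 and 3 counts in replicate 2. With no read at all, levels up to 0.36 CPM (replicate 1) or 0.37 CPM (replicate 2) would still be possible, taking 3 counts as the limit, so miR-181a-2-3p was at the limit of what this depth can detect. Limits and intervals were taken within each library and reflect counting error alone. PCR copies were not marked by molecular identifiers.

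**Figure D1:**
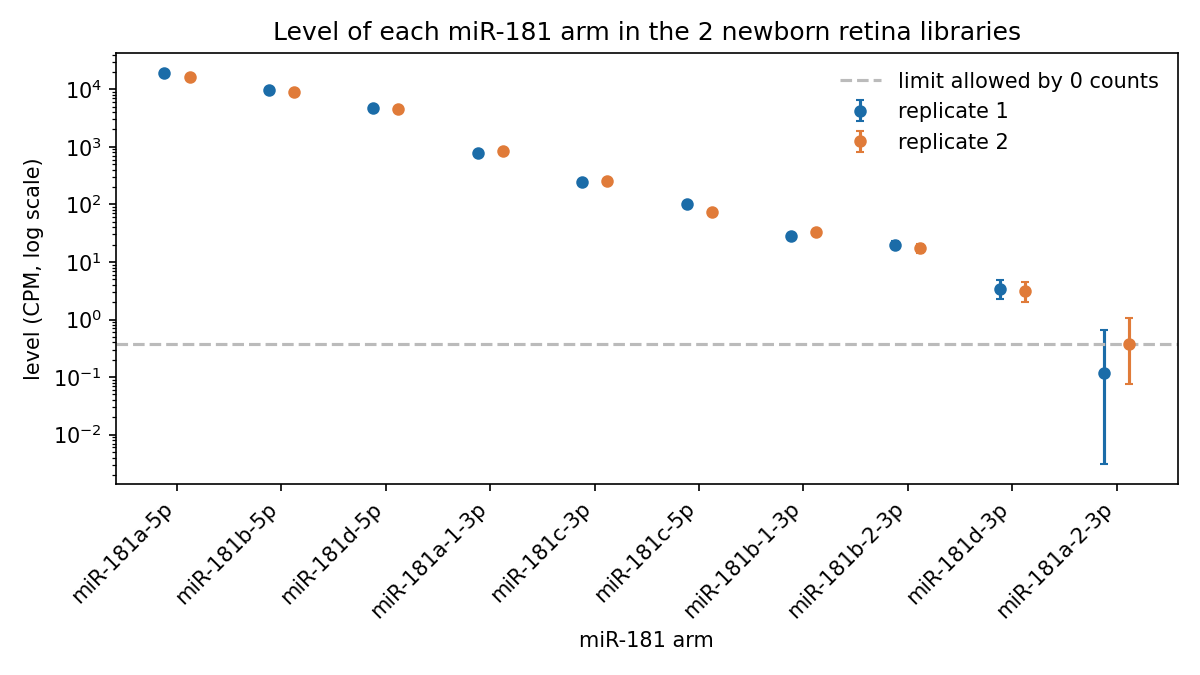
Level of each miR-181 arm in CPM on a log scale, ordered from the highest mean, with 1 point per library and exact 95% binomial intervals that cover counting error. The levels run from 19315 CPM for miR-181a-5p in replicate 1 down to 1 and 3 counts for miR-181a-2-3p, and miR-181c-5p sits below 2 of the 3p arms.

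In the order of mean levels each member differed from the next by more than the spread of the libraries. The order came from these same libraries, which largely fixed the direction of each mean ratio. For all 9 neighbouring pairs the log2 ratio had the same sign in both libraries and its mean was over 2 SD. The smallest step was that of miR-181b-1-3p over miR-181b-2-3p, with log2 ratios of 0.51 and 0.93 (0.72 ± 0.30), which lies only just past 2 SD. The step of miR-181c-5p over miR-181b-1-3p was 1.85 in replicate 1 and 1.13 in replicate 2 (1.49 ± 0.51). That of miR-181d-3p over miR-181a-2-3p was 4.25 and 2.87 (3.56 ± 0.98) and rests on 1 and 3 counts of miR-181a-2-3p. An SD from 2 libraries is imprecise, so these steps are weakly supported.

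Summed by seed, the 4 miR-181 5p arms were among the leading seed groups of the newborn retina. Their sum was 34012 CPM in replicate 1 and 29555 CPM in replicate 2, which ranked 7 in both libraries among 1076 seeds. Ahead of them were the seed groups of miR-9-5p, let-7, miR-182-5p, miR-26, miR-183-5p and miR-30. The miR-181 sum was below that of the miR-30 group, at 47364 and 46316 CPM, with a log2 ratio of -0.56 ± 0.12 (SD, n = 2). The group led by miR-25-3p and miR-92a-3p came next, at 28527 and 29187 CPM. The log2 ratio of miR-181 over it was 0.25 in replicate 1 and 0.018 in replicate 2 (0.14 ± 0.17), within 2 SD, so these groups could not be ranked. Among the 3p seeds, CCAUCGA of miR-181a-1-3p and miR-181c-3p summed to 1026 and 1094 CPM and ranked 53.

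**Figure D2:**
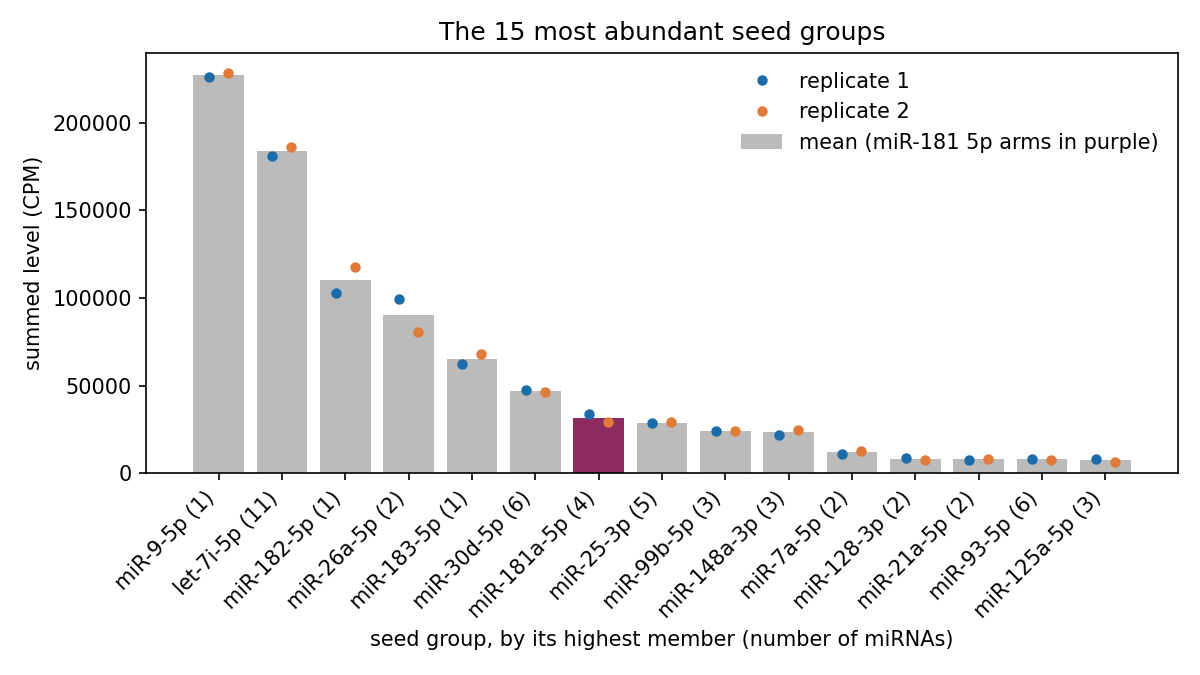
Summed level in CPM of the 15 most abundant seed groups, each labelled by its highest miRNA and the number of miRNAs that share the seed. Bars are means of the 2 libraries and points are the libraries. The 4 miR-181 5p arms, in purple, stand in position 7 at 34012 and 29555 CPM, next to the group of miR-25-3p at 28527 and 29187 CPM.

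The hairpins of the family differed in which arm was more abundant. miR-181a, miR-181b and miR-181d gave mostly 5p reads, whereas miR-181c gave more 3p than 5p. For miR-181d, 39986 5p counts stood against 28 3p counts in replicate 1 and 37029 against 25 in replicate 2, a log2 ratio of 10.48 ± 0.035. For miR-181b, 81720 5p counts stood against 395 counts of its pair of 3p arms in replicate 1, and 71570 against 407 in replicate 2 (log2 ratio 7.57 ± 0.17). For miR-181a, 161046 stood against 6539 and 130748 against 6825 (4.44 ± 0.26). These 3 were all dominated at least 4-fold by the 5p arm in both libraries, which was so for 41.8% of the 337 hairpin names that had a 5p and a 3p entry and 10 or more counts per library. miR-181c had 840 5p and 2020 3p counts in replicate 1, and 586 5p and 2056 3p counts in replicate 2. The 5p arm thus held 29.4% of its counts in replicate 1 (exact 95% interval 27.7 to 31.1%) and 22.2% in replicate 2 (20.6 to 23.8%).

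The log2 ratio of miR-181c-5p over miR-181c-3p was -1.27 in replicate 1 and -1.81 in replicate 2 (-1.54 ± 0.39). The excess of 3p passed the exact two-sided binomial test in each library (adjusted p = 1.4e-110 and 9.55e-190, Benjamini-Hochberg over all 337 names), a test that covers counting error only. An excess of 3p by the same rule was called for 41.8% of all hairpin names and an excess of 5p for 47.8%, so a hairpin with more 3p than 5p was common in the table. The neighbouring hairpin Mir181d, from the same intron and strand, lay near the 5p end of the range. Of the 337 names, 323 had a lower ratio of 5p over 3p than miR-181d, and 134 had a lower one than miR-181c. Part of the 3p count of miR-181c may be shared with miR-181a-1-3p. Both had a count that was not whole in each library (6537.5 and 2020.5 in replicate 1, 6821.5 and 2056.5 in replicate 2). Reads split between names would leave such counts. The first 15 bases of both arms are the same. The arms differ at base 16 (U16G), which a read of 18 nt or more from the annotated start covers. Whether they shared reads was not tested. In replicate 2 the counts of miR-181a-5p and miR-181b-5p were also not whole. The number of split reads cannot be read from the tables, so the size of the miR-181c ratio is uncertain.

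**Figure D3:**
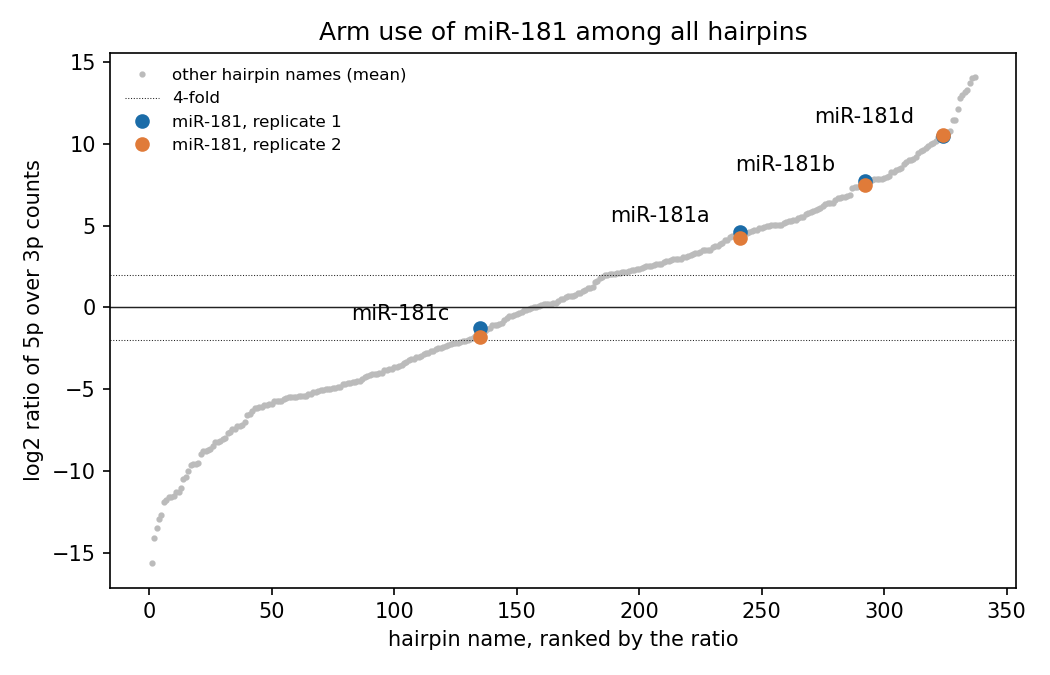
Log2 ratio of 5p over 3p counts for 337 hairpin names, ranked along the x axis, with the 4 miR-181 names shown per library and the others as the mean of both libraries. miR-181a, miR-181b and miR-181d lie above the dotted 4-fold line, and miR-181c lies below 0 in both libraries without reaching the 4-fold line on the 3p side.

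The 3p arms gave unequal counts for the copies of the same miRNA. miR-181a-1-3p had 6537.5 and 6821.5 counts, against 1 and 3 for miR-181a-2-3p. The ratio of their counts was 6538 in replicate 1 (exact 95% interval 1173 to 258276) and 2274 in replicate 2 (778 to 11030). For miR-181b the copies were far closer, with 232 and 267 counts of miR-181b-1-3p against 163 and 140 of miR-181b-2-3p, a ratio of 1.42 (1.16 to 1.75) in replicate 1 and 1.91 (1.55 to 2.36) in replicate 2. The pairs come from the same loci, Mir181a-1 with Mir181b-1 and Mir181a-2 with Mir181b-2, yet miR-181a-1-3p exceeded miR-181b-1-3p 26.8-fold, while miR-181b-2-3p had more counts than miR-181a-2-3p in both libraries. The entry for miR-181a-2-3p needs a caution. Its most frequent read carried 3 bases ahead of the miRBase release 21 start, per the marks in the file, while the RefSeq sequence shown above starts at the same base as the read. Such a start, at least 3 bases early in both libraries, was seen in 1.56% of the 963 miRNAs with a read in both libraries. How reads with bases ahead of the annotated start were counted is not given in the sources used here. The part of this in the low count of miR-181a-2-3p was not tested.

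The most frequent read of each 5p arm started at the annotated base in both libraries, which keeps the seed ACAUUCA in all 4. For miR-181a-5p, miR-181c-5p and miR-181d-5p it was the full RefSeq sequence. For miR-181b-5p it was aACAUUCAuugcugucgguggg, 22 bases long and 2 bases shorter at the 3′ end. In all, 9 of the 10 members had the same most frequent read in both libraries, and the exception was miR-181b-1-3p, whose read was 21 bases in replicate 1 and 20 in replicate 2. The read was the same in both for 64.3% of the 963 miRNAs with a read in both libraries. That share was 92.9% for those of at least 10 CPM and 97.2% for those of at least 100 CPM. miR-181d-3p was the only member whose most frequent read, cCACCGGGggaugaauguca, started later than the annotation, by 1 base. Its bases 2 to 8 were CACCGGG in place of the annotated CCACCGG, in a miRNA with 28 and 25 counts. Among all 963 miRNAs with a read in both libraries, 73.6% started at the miRBase base in both, and among those of at least 100 CPM it was 93.3%.

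The members differed by unequal amounts between the libraries. In log2 ratios of replicate 1 over replicate 2, scaled by the table totals, miR-181a-5p was at 0.26, miR-181b-5p at 0.15, miR-181c-5p at 0.48 and miR-181d-5p at 0.072. All 4 were higher in replicate 1 in the exact two-sided binomial test across 710 miRNAs (adjusted p of 1.23e-93 for miR-181b-5p, 3.55e-09 for miR-181c-5p and 3.12e-11 for miR-181d-5p, that of miR-181a-5p being too small to represent). miR-181a-1-3p was lower in replicate 1, at -0.10 (adjusted p = 0.000349, exact binomial test). miR-181c-3p (-0.064), miR-181b-1-3p (-0.24), miR-181b-2-3p (0.18) and miR-181d-3p (0.12) did not pass, and miR-181a-2-3p had too few counts to test. Thus 5 of 9 tested members differed, 4 of them higher and 1 lower in replicate 1. Of all tested miRNAs 27.9% differed, 19.6% higher and 8.31% lower in replicate 1, and the share was 78.3% for the 180 at 100 CPM or more. The test compares these libraries, not conditions, and covers counting error only.

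The direction of the smaller shifts depended on the scaling, because the scalings put the median log2 ratio of the tested miRNAs at different values, 0.12 with table totals, 0.0037 with TMM and 0.02 with DESeq2 size factors. miR-181a-5p (0.14 by TMM and 0.16 by DESeq2 size factors), miR-181b-5p (0.035 and 0.051) and miR-181c-5p (0.36 and 0.38) stayed higher in replicate 1. miR-181d-5p was lower in replicate 1 under both of the other scalings, at -0.046 and -0.0297. miR-181b-1-3p (-0.36 and -0.34) and miR-181c-3p (-0.18 and -0.17) then passed as lower in replicate 1, which made 7 of 9 members under either scaling, against 26.3% (TMM) and 26.6% (DESeq2 size factors) of all tested miRNAs. By table totals the share called was higher, 78.3%, for miRNAs of at least 100 CPM. For the other scalings the share at that level was not computed.

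**Figure D4:**
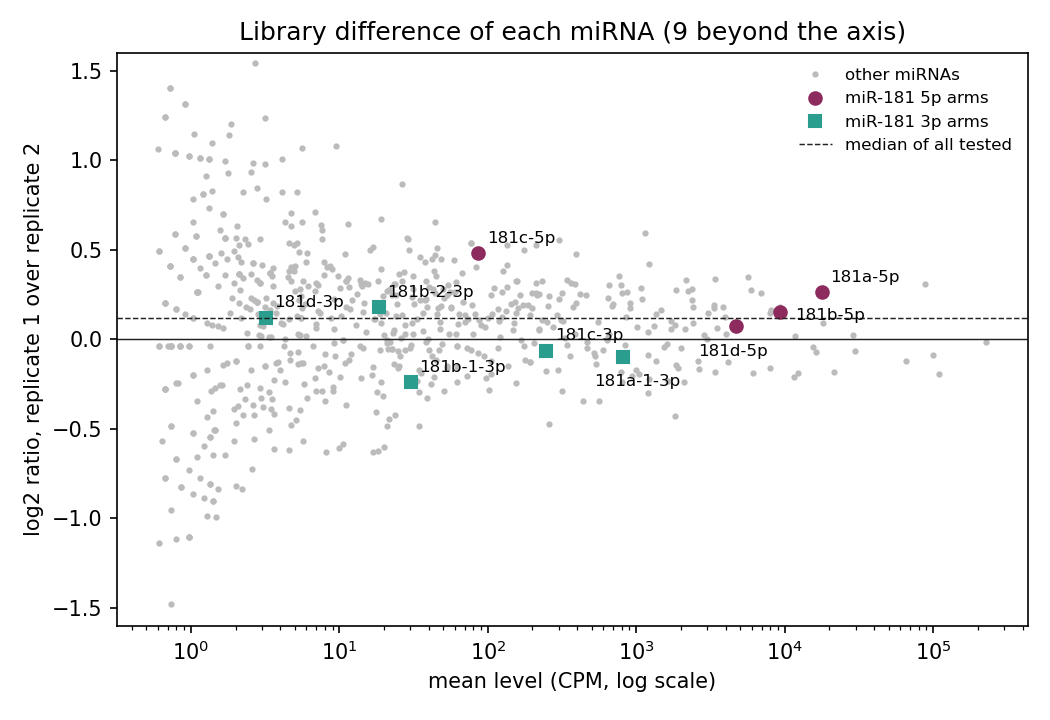
Log2 ratio of replicate 1 over replicate 2 by table totals against the mean level in CPM (log scale) for 710 miRNAs, with the tested miR-181 5p arms as circles and 3p arms as squares. The 5p arms lie between 0.072 and 0.48, the 3p arms between -0.24 and 0.18, the dashed line is the median of all tested miRNAs at 0.12, and 9 other miRNAs lie beyond the axis.

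Other miRNAs with levels like those of the members were found by the distance of log2(CPM + 0.5) over the 2 libraries. Over 2 libraries this distance speaks to the level and to little else. Nearest to miR-181a-5p were let-7a-5p (distance 0.13) and miR-25-3p (0.28), and neither differed from it beyond 2 SD. Nearest to miR-181b-5p were miR-30c-5p (0.021) and let-7c-5p (0.084), and to miR-181d-5p miR-151-3p (0.29) and miR-93-5p (0.32). miR-181c-5p lay nearest to miR-410-3p (0.095) and let-7a-1-3p (0.25), and miR-181a-1-3p to miR-361-3p (0.09) and miR-99b-3p (0.095). The entry let-7c-2-3p had the same mean level and the same ratio between libraries as let-7a-1-3p, and so tied with it. Next to miR-181c-3p were miR-1839-5p (0.081) and miR-504-5p (0.083), next to miR-181b-1-3p miR-331-5p (0.13) and miR-23a-3p (0.14), and next to miR-181b-2-3p miR-6944-3p (0.04) and miR-483-5p (0.087). miR-34a-5p (0.051) and miR-128-1-5p (0.067) were nearest to miR-181d-3p. miR-193b-3p and miR-218-1-3p had the same counts as miR-181a-2-3p, 1 and 3. Of these neighbours let-7c-5p, let-7a-1-3p (with its tie let-7c-2-3p), miR-93-5p, miR-483-5p and miR-504-5p had a log2 ratio to their member beyond 2 SD, and the others did not. That rule leaves out counting error. miR-483-5p, at 18.7 and 16.5 CPM, lay within the exact binomial intervals of miR-181b-2-3p (16.7 to 22.8 and 14.5 to 20.35 CPM). miR-504-5p lay within that of miR-181c-3p in replicate 1 (252 CPM, interval 232 to 253 CPM). In replicate 2 it was just above it (264.59 CPM, upper limit 264.45 CPM). The comparison in replicate 2 leaves out the counting error of miR-504-5p itself. A difference was therefore not shown for miR-483-5p or for miR-504-5p.

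Against a list of 9 miRNAs known from axon growth or guidance in neurons, the leading miR-181 arms were high. All 9 were detected in both libraries, with a median of 649 CPM. Only miR-9-5p, which acts in neural progenitors and was the highest of the table at 226008 CPM in replicate 1 and 228391 CPM in replicate 2, and miR-26a-5p, at 97084 and 78285 CPM, were above miR-181a-5p. The other 7 were below miR-181d-5p. miR-204-5p, an eye miRNA linked to ganglion cell axon guidance in medaka, was at 3784 and 2994 CPM. miR-16-5p was at 944 and 785 CPM, and miR-124-3p of differentiated neurons was at 701 and 597 CPM. miR-30b-5p was at 211 and 187 CPM, and miR-138-5p at 23.7 and 22.9 CPM. miR-132-3p, an activity-regulated miRNA of axon and dendrite branching, was at 18.1 and 16.8 CPM, and miR-338-3p at 5.28 and 3.33 CPM.

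Marker miRNAs of blood, vessel, muscle, liver and other eye cells were each below the miR-181 family in summed level. The 5 neural retina markers (miR-9-5p, miR-182-5p, miR-183-5p, miR-96-5p and miR-124-3p) were all detected and gave 398217 CPM together in replicate 1, and 419768 CPM in replicate 2. Of the 5 leukocyte markers 3 were detected in both libraries, their sum was 7.2 and 6.16 CPM, and no read of the defining miR-223-3p or miR-150-5p was found. The miR-181 family, at 35090 and 30702 CPM, was 4876 and 4985 times that sum. The endothelial pair of miR-126a arms summed to 985 and 854 CPM, 3 pigment epithelium and lens markers to 4528 and 3869 CPM, and 3 skeletal muscle markers to 88.7 and 92.0 CPM. The erythroid list reached 0.72 and 0.493 CPM, with 2 of 3 detected in both libraries, and the liver marker miR-122-5p 20.7 and 21.1 CPM. The part of these cells in the miR-181 counts was not tested.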

How the data were processed

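Small RNA of 18 to 30 nt from newborn CD-1 mouse retina was made into ligation-based libraries after gel selection, per the labels' protocols, which leaves out most precursors. The submitters' processing notes name bcl2fastq 2.17.1.14 for read output. Which aligner, counter, trimming and build were used is not given in the sources used here. The authors deposited estimated counts per mature miRNA, with values that were not whole for 6.77% of miRNAs in replicate 1 and 5.96% in replicate 2. They also deposited CPM, which sums to 88.5% of a full library in both libraries, and the most frequent read of each miRNA. Per the file headers, these reads carry marks relative to miRBase release 21. The mark _ was taken to stand for a missing 5′ base.

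CPM was recomputed as the count over the table total, 1.13 times the deposited CPM, and counts were rounded for tests and ratios. Within a library, arms or members were compared by the log2 ratio of counts with 0.5 added, and a difference had to exceed 2 SD with the same sign in both libraries. Arms were summed over the copies of a hairpin name. For arms, an exact binomial test in each library with an adjusted p below 0.05 over all hairpin names was also required. Libraries were compared by an exact binomial test of each miRNA with at least 10 counts, and the edgeR quasi-likelihood test was not used because a model that sets 1 library against the other leaves no residual degrees of freedom. Seeds came from RefSeq for 1152 miRNAs and from the most frequent read for 139, and 67 had none. Alternatives used TMM and dispersion from edgeR 4.0.16 and size factors from DESeq2 1.42.0 in R 4.3.3. Other values used SciPy 1.17.1, statsmodels 0.14.6, pandas 2.3.3 and NumPy 2.4.6 under Python 3.11.15, with plots by matplotlib 3.10.9.

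The members, lists and tests were chosen with earlier results of these data known. The text names all members, the 2 miRNAs nearest in level to each (with a tie), any miRNA that shares a seed, the axon list and the cell type markers. The seed groups and the arms singled out were named after their values were seen.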

Additional observations from a re-analysis of the deposited data

How the results depend on the processing

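The summed level of the family, 32896 CPM, was 29120 CPM in the deposited CPM, which use a larger library total, and 42563 CPM when miR-9-5p was left out of the total. From a library alone it was 30702 to 35090 CPM. The arm ratios kept their sign and stayed over 2 SD with 1 added to each count and with fractional counts. From a library alone they were 4.26 to 4.62 for miR-181a, 7.46 to 7.69 for miR-181b, -1.81 to -1.27 for miR-181c and 10.45 to 10.50 for miR-181d. The 5p-dominated names numbered 3 also at 10-fold, a cut at which the share of all hairpin names was not computed. All 9 neighbouring pairs stayed over 2 SD with the other added count and with fractional counts. The number of arms that differed between the libraries was 5 of 9 by table totals and 7 of 9 by TMM and by DESeq2 size factors. With no filter it was 5 of 10, against 183 of all 1145 miRNAs tested. With at least 100 counts it was 5 of 8, against 210 of 403 miRNAs tested. With edgeR's dispersion it was 0 of 9 (1 of 9 arms and 35 of 710 miRNAs at an unadjusted p under 0.05). That dispersion was estimated from the same 2 libraries, so this count says nothing on whether the arms differ. miR-181d-5p reversed its library difference, to -0.046 with TMM and -0.0297 with DESeq2 size factors (0.072 by table totals), as the scaling of the libraries differs. With RefSeq in place of miRBase starts, 1 arm in place of 2 started off the annotated base, because the entries for miR-181a-2-3p differ. No paired analysis was possible because the series has 1 group. A count of 10 carries a counting error of 31.6%, so depth limits miR-181a-2-3p and miR-181d-3p most.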
